A study of Rattus norvegicus with 10 samples.

Results

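The p53 growth arrest and stress targets followed here were Cdkn1a, Ccng1, Btg2, Plk2, Mdm2, Phlda3, Gdf15, Tp53inp1 and Sesn1, 9 genes known to be switched on by the transcription factor p53 that halt the cell cycle, feed back on p53 or carry stress signals. A gene was found on the array through the RefSeq accession given for each probe, which a gene table turned into a symbol. By that match 8 of the 9 genes were measured, by 11 probes, out of 13426 genes and 40945 probes tested; no probe was matched to Sesn1, which has no value here. As only 16968 of the probes carried a matched symbol and the scanner files give no gene names, the unmatched ones may include a probe for Sesn1. RNA from the livers of male Wistar rats was read on 10 one-colour Agilent arrays, 1 per rat, taken 24 h after irradiation. The 3 control rats received 0 Gy, the 3 TBI rats received total body irradiation (TBI) with 6.5 Gy from a 60Co source, and the 4 MASM + TBI rats were given MASM, a matrine derivative, at 30 mg/kg per day for 3 days into the stomach before the same 6.5 Gy. Doses are those of the sample labels, and the study's text gives another dose for the irradiated groups. Groups also follow the labels. The group names in the study's cluster figure conflict with the labels, and which naming holds was not tested. The study reports a larger fold for Atf4 and Nr4a1 after TBI than after MASM and TBI, the order also seen here by the labels. The study's text names water in place of MASM for its tissue experiments, and the rats' age was not given in the sources used here. The labels number the replicates, and the study's text speaks of 3 or 4 rats a group on the arrays, so each replicate was taken as a separate rat. The number of arrays limits the precision of every value below.

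DNA breaks activate kinases that free p53 from its inhibitor Mdm2, and stabilised p53 then raises the transcription of genes that stop the cell cycle, start repair, alter metabolism or start cell death. Several of these targets close loops, since Mdm2 marks p53 for destruction and other targets damp growth and survival signals. In the liver most hepatocytes rest outside the cell cycle, and such resting cells can raise p53 targets such as Cdkn1a after radiation without dying in large numbers.

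Each value is a log2 signal, the scanner software's background-subtracted spot intensity after the arrays were brought to a common distribution (quantile normalization), so 1 unit is a doubling. The share of spots well above background was 57.2, 59.9 and 58.3% in control rats 1, 2 and 3, 64.1, 66.8 and 70.1% in TBI rats 1, 2 and 3, and 59.8, 57.9, 56.2 and 60.2% in MASM + TBI rats 1, 2, 3 and 4. The arrays sat on 3 slides, and the groups were not spread over them: the control arrays were all on slide 1, the TBI arrays all on slide 2, MASM + TBI rat 3 on slide 1 and the other MASM + TBI rats on slide 3. The effect of TBI and that of the slide therefore cannot be told apart from the TBI arrays, and MASM + TBI rat 3 gives the sole comparison of an irradiated rat with controls on the same slide. The hepatocyte markers were well above background on every array. Their summed log2 signal lay between 20.01 and 20.25 in the 10 rats, the probe of transferrin (Tf) was the brightest, and 0 of the 8 markers was below background. Brightness also depends on the probe, so it does not rank the genes by abundance.

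The comparison of TBI with control asks how far the targets responded to irradiation, and that of MASM + TBI with control asks the same in rats that had MASM first. The limma model was fitted over all 10 arrays, and a gene was called when its p, adjusted for the testing of all probes (Benjamini-Hochberg), was below 0.05 and its change was at least 1.5-fold. In TBI rats against controls, 7 of the 8 measured targets were called higher, where 2.44% of the 13426 genes were called higher and 5.18% in either direction. In MASM + TBI rats against controls it was again 7 of 8, against a background of 0.931% called higher and 2.90% in either direction. The TBI and control rats did not overlap for 7 of the 8 targets, where they did not overlap for 30.6% of all genes, and the MASM + TBI and control rats did not overlap for 8 of 8, against 22.3% of all genes. The median log2 fold change over the targets was 2.51 in the TBI comparison and 2.50 in the MASM + TBI comparison, and over all genes it was -0.01 and 0.0. These comparisons share the control rats. Plk2 was the target called in neither.

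The first role among the targets is arrest of the cell cycle. Cdkn1a encodes p21, which binds cyclin-dependent kinases and blocks entry into S phase. Its probe A_44_P914438, printed on 10 spots of each array, read 8.01, 8.25 and 8.84 in control rats 1, 2 and 3, 13.47, 13.67 and 14.06 in TBI rats 1, 2 and 3, and 13.06, 13.23, 12.80 and 13.58 in MASM + TBI rats 1, 2, 3 and 4. Every irradiated rat was far above every control rat, and the ranges of the TBI and MASM + TBI groups overlapped. Cdkn1a rose by 5.36 ± 0.27 (SE, n = 3 and 3) in TBI rats, 41.2-fold (limma adjusted p 1.30e-04), and by 4.80 ± 0.25 (SE, n = 4 and 3) in MASM + TBI rats, 27.8-fold (limma adjusted p 1.46e-04). The second probe, A_44_P515275, was not well above background on any control array, so its ratio to control is a bound: by it Cdkn1a exceeded control at least 9.69-fold after TBI and at least 8.48-fold after MASM and TBI. These bounds hold for the processing used here. Another processing, with median intensities, a model of background (normexp) and an added offset of 50, put the log2 fold change of the same probe at 1.09 and 1.04, and which of these changes made it smaller was not tested.

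Ccng1 encodes cyclin G1, which recruits a phosphatase to Mdm2 and takes part in arrest after damage. Its signal (probe A_44_P367761) was 8.61, 9.12 and 8.62 in control rats 1, 2 and 3, 11.31, 11.45 and 11.04 in TBI rats 1, 2 and 3, and 11.36, 11.57, 10.74 and 11.82 in MASM + TBI rats 1, 2, 3 and 4. The irradiated rats again lay wholly above the controls, with MASM + TBI rat 3 the lowest of them and rat 4 the highest. Ccng1 rose by 2.48 ± 0.27 (SE) in TBI rats (limma adjusted p 0.00283) and by 2.59 ± 0.25 (SE) in MASM + TBI rats (limma adjusted p 0.00218). The other probe, A_44_P235919, gave 2.51 and 2.58.

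Btg2 encodes an antiproliferative protein that recruits the machinery that shortens poly(A) tails and is also an early response gene. Its signal (probe A_44_P398142) was 9.0, 10.39 and 9.52 in control rats 1, 2 and 3, 12.14, 13.13 and 13.02 in TBI rats 1, 2 and 3, and 12.61, 12.67, 12.93 and 10.80 in MASM + TBI rats 1, 2, 3 and 4. MASM + TBI rat 4 stood well below the other irradiated rats and close to control rat 2, though still above it. Btg2 rose by 3.13 ± 0.60 (SE) in TBI rats (8.74-fold, limma adjusted p 0.0244) and by 2.62 ± 0.56 (SE) in MASM + TBI rats (6.13-fold, limma adjusted p 0.0481). Both calls were fragile. In the TBI comparison the call was lost without control rat 1 (adjusted p 0.0722), control rat 3 (0.0805), TBI rat 2 (0.0671) or TBI rat 3 (0.0514). In the MASM + TBI comparison it was lost without control rat 1 (0.12), 2 (0.0739) or 3 (0.152), without TBI rat 1 (0.055), 2 (0.0667) or 3 (0.0625), and without MASM + TBI rat 1 (0.128), 2 (0.102) or 3 (0.103), while without MASM + TBI rat 4 the adjusted p was 0.0139. Over every alternative of the processing the adjusted p ran from 0.00599 to 0.231 in the TBI comparison and from 0.0139 to 0.217 in the MASM + TBI comparison.

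Plk2 encodes a polo-like kinase that acts on centrioles and checkpoint control in G1 and S phase. Its signal (probe A_44_P352268) was 9.57, 10.37 and 9.59 in control rats 1, 2 and 3, 10.55, 10.62 and 10.06 in TBI rats 1, 2 and 3, and 10.76, 11.18, 10.56 and 10.52 in MASM + TBI rats 1, 2, 3 and 4. TBI rat 3 lay below control rat 2, so those groups overlapped, whereas all MASM + TBI rats lay above all controls. The log2 fold change was 0.57 in TBI rats (95% interval -0.05 to 1.18, limma adjusted p 0.247) and 0.91 in MASM + TBI rats (95% interval 0.33 to 1.49, limma adjusted p 0.103), and neither was called. With slide taken as a random block Plk2 was called in the MASM + TBI comparison, at 0.95 and limma adjusted p 0.0374. The alternatives ran from 0.0374 to 0.472. As slides and groups largely coincide, the random block cannot separate them, and its smaller p does not make the rise of Plk2 firmer.

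Mdm2 carries the feedback on p53, as the ligase that marks it for destruction. Its signal (probe A_44_P634946) was 8.92, 8.98 and 8.96 in control rats 1, 2 and 3, 9.76, 9.84 and 10.13 in TBI rats 1, 2 and 3, and 10.25, 10.35, 10.01 and 10.66 in MASM + TBI rats 1, 2, 3 and 4. The controls were close together, the irradiated rats were all above them, and TBI rat 3 lay above MASM + TBI rat 3. Mdm2 rose by 0.96 ± 0.16 (SE) in TBI rats (1.95-fold, limma adjusted p 0.0162) and by 1.37 ± 0.15 (SE) in MASM + TBI rats (2.58-fold, limma adjusted p 0.00372). The call in the TBI comparison was lost without control rat 3 (adjusted p 0.0554, where the alternatives ran from 0.00312 to 0.254). The other probe, A_43_P16885, gave 1.11 and 1.37.

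The remaining targets act in survival, secretion and stress. Phlda3 encodes a lipid-binding protein that keeps the kinase Akt from the membrane, and its signal (probe A_44_P288291) was 6.22, 6.30 and 6.71 in control rats 1, 2 and 3, 8.91, 9.15 and 8.81 in TBI rats 1, 2 and 3, and 8.65, 8.92, 8.91 and 8.83 in MASM + TBI rats 1, 2, 3 and 4. The irradiated rats formed a narrow band well above the controls, with the TBI and MASM + TBI rats mixed within it. Phlda3 rose by 2.55 ± 0.15 (SE) in TBI rats (5.84-fold, limma adjusted p 2.53e-04) and by 2.41 ± 0.14 (SE) in MASM + TBI rats (5.33-fold, limma adjusted p 2.86e-04).

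Gdf15 encodes a secreted cytokine of stressed cells that lowers appetite through a receptor in the hindbrain. Its signal (probe A_42_P608780) was 5.73, 6.64 and 6.23 in control rats 1, 2 and 3, 10.18, 10.55 and 10.65 in TBI rats 1, 2 and 3, and 10.36, 10.88, 10.60 and 8.97 in MASM + TBI rats 1, 2, 3 and 4. MASM + TBI rat 4 was the lowest irradiated rat, as for Btg2, and was still far above the controls. Gdf15 rose by 4.26 ± 0.47 (SE) in TBI rats (19.2-fold, limma adjusted p 0.00283) and by 4.0 ± 0.43 (SE) in MASM + TBI rats (16-fold, limma adjusted p 0.00317).

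Tp53inp1 encodes a nuclear stress protein that also takes part in autophagy. Its signal (probe A_43_P21564) was 8.42, 8.32 and 8.14 in control rats 1, 2 and 3, 9.68, 9.94 and 9.28 in TBI rats 1, 2 and 3, and 9.74, 9.81, 9.68 and 9.78 in MASM + TBI rats 1, 2, 3 and 4. TBI rat 3 was the lowest irradiated rat and still above every control, and the MASM + TBI rats lay close together. Tp53inp1 rose by 1.34 ± 0.16 (SE) in TBI rats (2.53-fold, limma adjusted p 0.00367) and by 1.46 ± 0.15 (SE) in MASM + TBI rats (2.75-fold, limma adjusted p 0.00245).

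**Figure D1:**
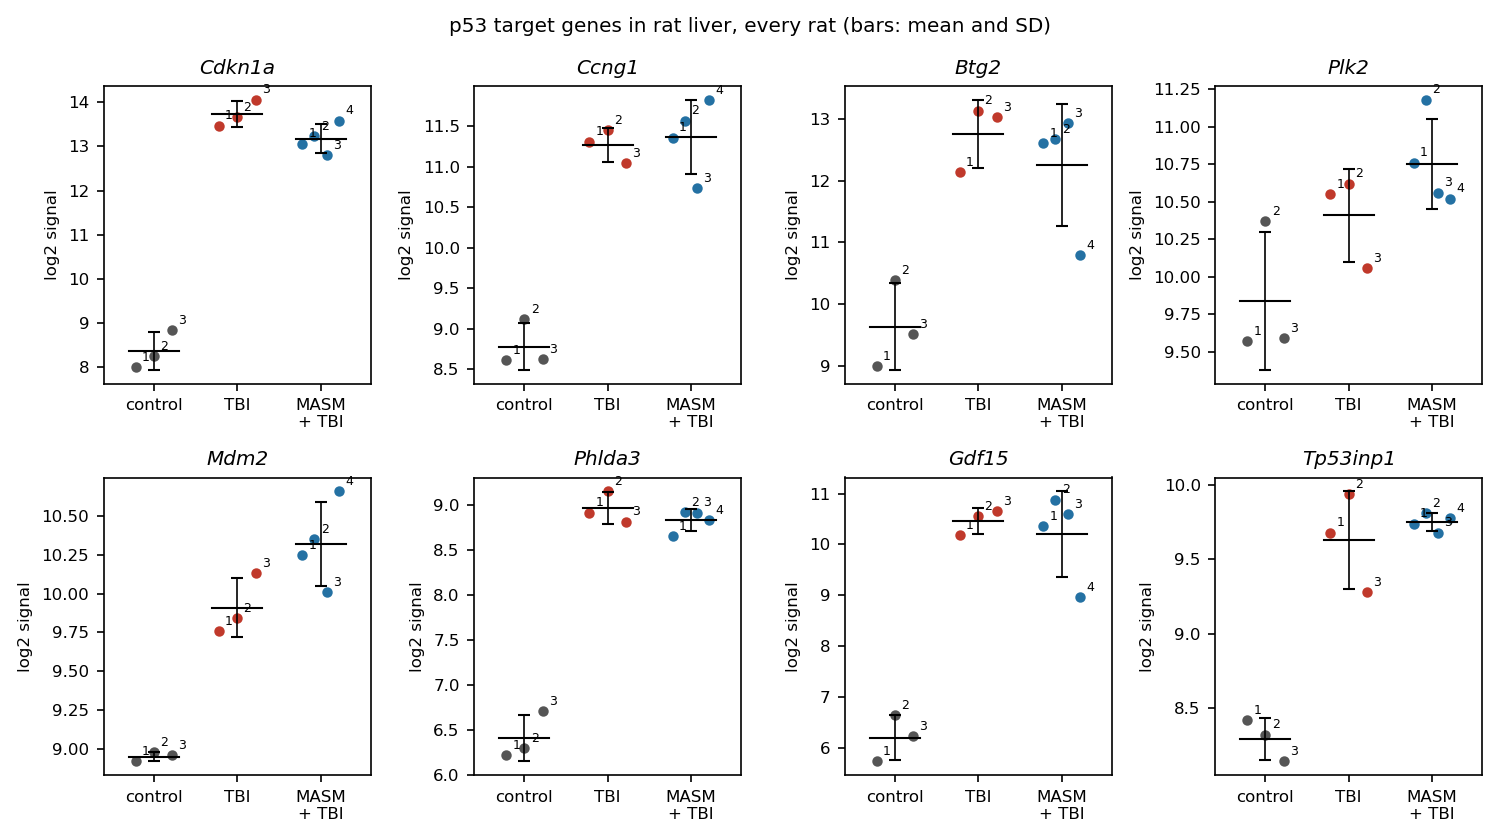
Log2 signal of the 8 measured p53 targets in each rat, 1 panel per gene, with replicate numbers as points and bars for the group mean and SD. The irradiated rats lie above every control rat in each panel except that of Plk2, where TBI rat 3 lies below control rat 2.

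The processing with normexp, median intensities and an offset also gave smaller differences for other targets, which all kept their calls. It put Gdf15 at 2.89 in TBI rats and 2.70 in MASM + TBI rats, Phlda3 at 1.56 and 1.47, and the main probe of Cdkn1a at 4.74 and 4.18.

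Within slide 1, MASM + TBI rat 3 exceeded the mean of the 3 control rats for every measured target. The difference in log2 signal was 4.43 for Cdkn1a, 4.40 for Gdf15, 3.30 for Btg2, 2.49 for Phlda3, 1.95 for Ccng1, 1.39 for Tp53inp1, 1.06 for Mdm2 and 0.72 for Plk2. With slide as a fixed term in the model, the estimate for MASM + TBI against control is this same difference of 1 rat from the controls, and the spread comes from the other rats, so the lone rat is assumed to vary like the other groups. On that assumption 3 of the 8 targets by their brightest probe (Cdkn1a, Phlda3 and Tp53inp1) were called in the MASM + TBI comparison, where 1.21% of all genes were. The calls of Ccng1 (limma adjusted p 0.0558, with alternatives from 4.19e-04 to 0.0767), Mdm2 (0.0742, from 0.00107 to 0.115), Gdf15 (0.0963, from 8.99e-04 to 0.0963) and Btg2 (0.217, from 0.0139 to 0.217) were lost, as was that of the dimmer probe of Cdkn1a (0.0589, from 1.99e-04 to 0.173), while the dimmer probes of Ccng1 and Mdm2 were called. When each gene was tested by itself, with no spread shared across genes, 0 of 8 targets were called by their brightest probe after adjustment in either comparison with control, where 0.0372% of all genes were called in the TBI comparison and 0.0968% in the MASM + TBI comparison. The dimmer probe of Ccng1 was called by that test in the MASM + TBI comparison (adjusted p 0.0389). At an unadjusted p below 0.05 with the same fold, 7 of 8 passed that test in both comparisons, as did 7.43% of all genes in the TBI comparison and 6.75% in the MASM + TBI comparison. Without 1 rat at a time, limma called 5 to 7 targets in the TBI comparison, the lowest without control rat 3, and 6 to 7 in the MASM + TBI comparison. The share of all genes called in those fits is not given here. A loss particular to the targets therefore cannot be told from a general loss of calls with fewer arrays.

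The comparison of MASM + TBI with TBI asks whether MASM given first changed the response. By limma 0 of the 8 targets were called, where 0.864% of all genes were called in either direction, and 1 of 8 (Mdm2) had an unadjusted p below 0.05, as did 16.5% of all genes. Testing each gene by itself called 0 targets as well (0.00745% of all genes), with 0 at an unadjusted p below 0.05 and the same fold (3.37% of all genes). The groups overlapped for all 8 targets, while 17.2% of all genes did not overlap. The log2 fold change was positive for 4 targets and negative for 4, with a median of -0.01 (0.01 over all genes). A p above the threshold does not show that the groups were alike, and the intervals give what the arrays allow. For Mdm2 the log2 fold change was 0.41 (95% interval 0.06 to 0.76, limma adjusted p 0.229), and for its other probe 0.26 (-0.04 to 0.56). For Cdkn1a it was -0.57 (95% interval -1.14 to 0.01, limma adjusted p 0.304), and for its second probe -0.19. The interval for Phlda3 ran from -0.45 to 0.19 about -0.13, and that for Tp53inp1 from -0.21 to 0.46 about 0.12. Wider intervals held for Ccng1, -0.48 to 0.69 about 0.10, and for Plk2, -0.23 to 0.92 about 0.34. The widest were those of Gdf15, -1.25 to 0.74 about -0.26, and Btg2, -1.79 to 0.77 about -0.51. The sign for Gdf15, Ccng1 and Tp53inp1 rested on single rats: without MASM + TBI rat 4 Gdf15 was at 0.15 and Ccng1 at -0.04, and without TBI rat 3 Ccng1 was at -0.01 and Tp53inp1 at -0.05. Btg2 kept its sign, but nearly all of its difference rested on MASM + TBI rat 4, without which it was at -0.03. No MASM + TBI rat shared a slide with a TBI rat, so this comparison and the slide cannot be told apart either.

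**Figure D2:**
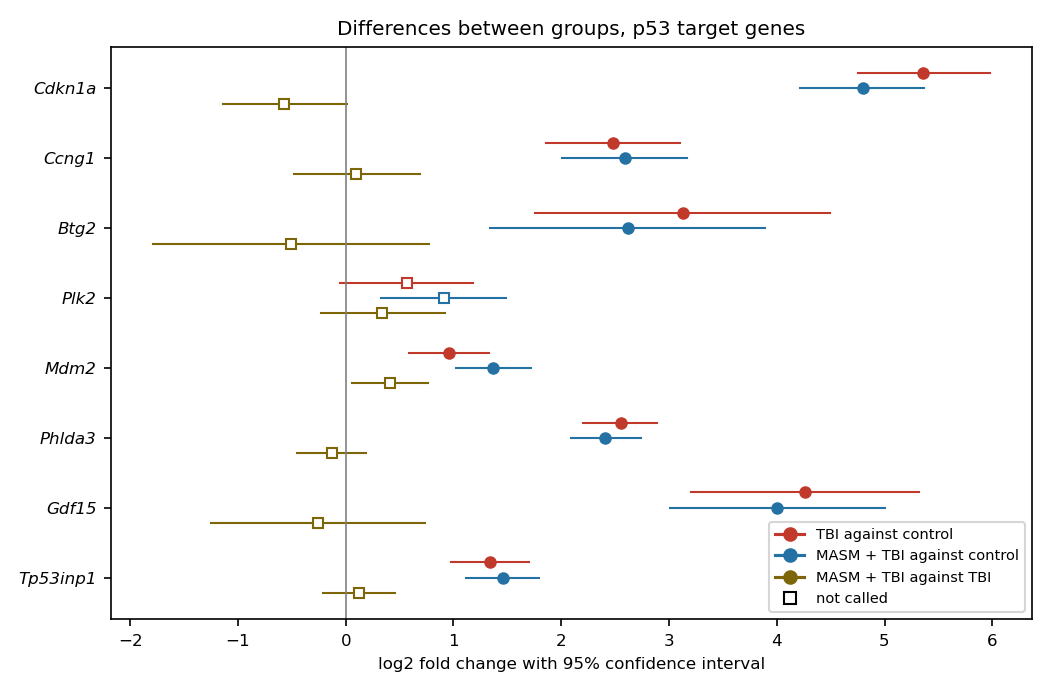
Log2 fold change of the 8 measured p53 targets with 95% intervals in TBI against control, MASM + TBI against control and MASM + TBI against TBI. Open squares mark differences that were not called, which are Plk2 in the comparisons with control and all 8 targets in MASM + TBI against TBI.

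Averaged over the 8 measured targets, as log2 signal minus the control mean, the rats stood at -0.25, 0.24 and 0.02 in control rats 1, 2 and 3, at 2.44, 2.73 and 2.57 in TBI rats 1, 2 and 3, and at 2.54, 2.76, 2.47 and 2.31 in MASM + TBI rats 1, 2, 3 and 4. Control rat 1 was the lowest of the controls for 7 of the 8 targets and control rat 2 the highest for 5. In this average the ranges of the TBI and MASM + TBI rats overlapped. Single targets were less mixed: MASM + TBI rats 1, 2 and 3 lay below every TBI rat for Cdkn1a. For Mdm2, MASM + TBI rats 1, 2 and 4 lay above every TBI rat. MASM + TBI rat 4 split the targets: it was the highest of its group for Cdkn1a, Ccng1 and Mdm2, and the lowest for Btg2, Gdf15 and Plk2. The stress genes Atf3, Chac1, Nr4a1 and Jun, singled out after their values were seen, were low in the same rat. Atf3, a stress transcription factor, read 7.20 in MASM + TBI rat 4 and 11.45 to 12.15 in the other rats of its group, and Chac1, a glutathione-cleaving enzyme, read 6.27 against 11.00 to 11.70. For the early response genes Nr4a1 and Jun the values were 5.97 against 11.03 to 11.90 and 10.49 against 13.23 to 13.75. What set this rat apart was not tested.

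**Figure D3:**
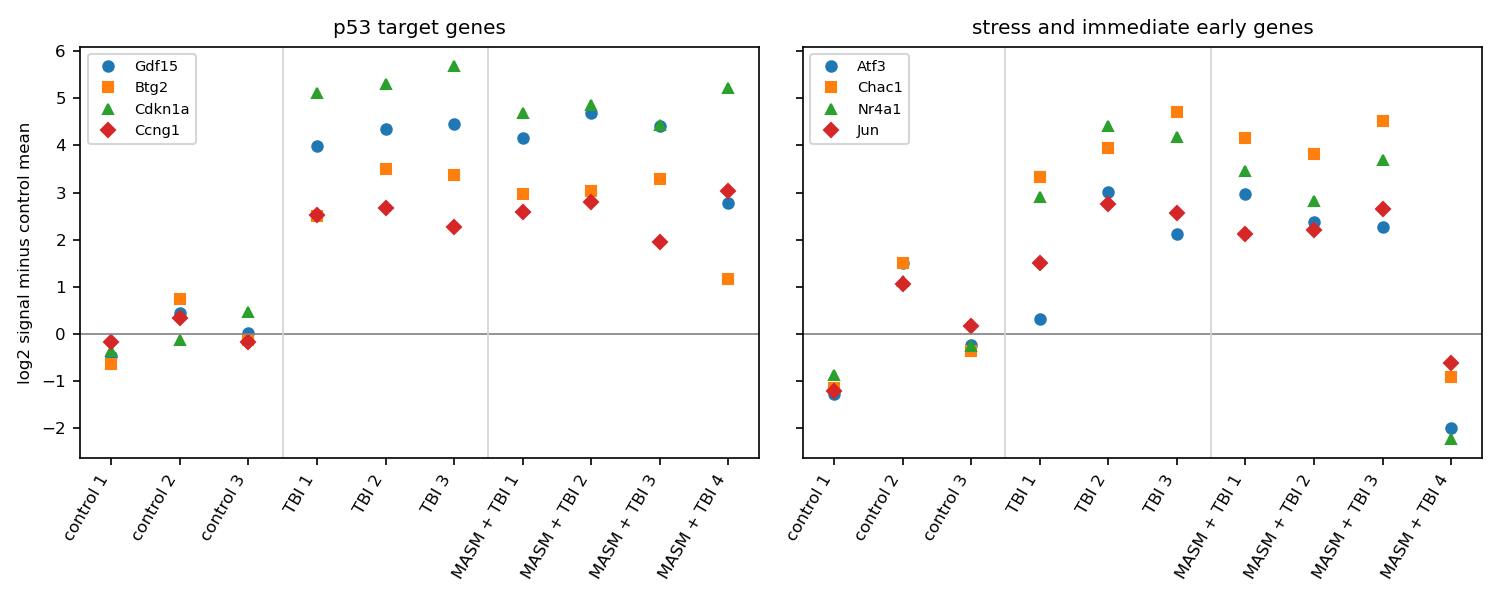
Log2 signal minus the control mean in each rat for the targets Gdf15, Btg2, Cdkn1a and Ccng1 (left) and the stress genes Atf3, Chac1, Nr4a1 and Jun (right). MASM + TBI rat 4 lies near or below the controls for the stress genes, is the lowest of its group for Gdf15 and Btg2, and is the highest of its group for Cdkn1a and Ccng1.

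The immediate early list, to which Btg2 is related by its quick induction, was low in the same rat. Its mean over 10 genes, as log2 signal minus the control mean, was -0.86, 0.69 and 0.17 in control rats 1, 2 and 3, 0.66, 1.51 and 1.38 in TBI rats 1, 2 and 3, and 1.59, 1.12, 1.47 and -0.71 in MASM + TBI rats 1, 2, 3 and 4. MASM + TBI rat 4 and control rat 1 were the lowest of the 10 rats, and the control and TBI ranges overlapped. By limma 0 of 10 genes were called in each comparison, 3, 1 and 0 had an unadjusted p below 0.05 in TBI against control, MASM + TBI against control and MASM + TBI against TBI, and testing each gene by itself also called 0. The medians were 0.87, 0.57 and -0.41, and the largest differences between TBI and control, 3.83 for Nr4a1 (limma adjusted p 0.162) and 2.28 for Jun (0.173), were not called.

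The integrated stress response, a program of amino acid and protein folding stress that can also raise Gdf15, had 2 of 11 genes called higher in TBI rats, 1 of 11 in MASM + TBI rats and 0 of 11 between them by limma (2 at an unadjusted p below 0.05, 0 when each gene was tested by itself), with medians of 0.59, 0.37 and -0.13. The called genes were Sesn2 in both comparisons with control, at 0.98 and 0.85, and Atf4 in TBI rats, at 0.59 (limma adjusted p 0.0477). Sesn2 also stands on the lists of other p53 targets and of relatives below, and its calls are counted in each. Its calls therefore do not set this program apart from the p53 targets. Chac1, at 4.0 in TBI rats (0.131), was not called. The glucocorticoid and fasting list had 2 of 14 genes called higher and 2 lower in TBI rats, 0 in MASM + TBI rats against control (5 at an unadjusted p below 0.05, 0 when each gene was tested by itself), and 1 higher in MASM + TBI against TBI, with medians of 0.43, -0.18 and -0.23. On both lists MASM + TBI rat 4 stood apart: its mean, minus the control mean, was -0.40 on the stress response list and 0.49 to 1.16 in the other rats of its group, and -0.37 on the glucocorticoid and fasting list against 0.25 to 0.45. Sgk1 at 1.57 and Tsc22d3 at 0.68 were higher in TBI rats, Zbtb16 at -2.40 and Fkbp5 at -0.82 lower, and Zbtb16 was higher by 2.12 in MASM + TBI against TBI (limma adjusted p 0.0435).

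Upstream of the targets are the kinases that activate p53 and the proteins that restrain it. Of 8 measured p53 regulators, 2 were called higher and 1 lower in TBI rats, 1 higher in MASM + TBI rats, and 1 higher in MASM + TBI against TBI, with medians of 0.15, 0.23 and 0.02. Mdm4, the inhibitor paired with Mdm2, rose by 0.76 in TBI rats (limma adjusted p 0.00703) and 0.61 in MASM + TBI rats (0.0183). Prkdc, the DNA-dependent protein kinase, rose by 0.62 in TBI rats (0.0312) by its brighter probe. Its dimmer probe averaged 4.31 in control and 4.74 in TBI rats, and those groups overlapped. The checkpoint kinase Chek2 fell by 1.26 in TBI rats (0.0349). Rchy1, another ligase for p53, named here because its values stood out, read 7.44, 7.51 and 7.38 in control rats 1, 2 and 3, 7.38, 7.02 and 7.18 in TBI rats 1, 2 and 3, and 7.88, 7.91, 7.67 and 7.91 in MASM + TBI rats 1, 2, 3 and 4. Every MASM + TBI rat was above every other rat, including rat 3, which shared slide 1 with the controls. Rchy1 was 0.65 higher in MASM + TBI than in TBI rats (limma adjusted p 0.0245).

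Beyond the targets themselves, 20 other p53 targets were measured. In TBI rats 5 were called higher and 0 lower, in MASM + TBI rats 5 higher and 1 lower, and between the irradiated groups 0 by limma (2 at an unadjusted p below 0.05, 0 when each gene was tested by itself). Tested by themselves against control, 0 of the 20 were called in TBI rats and 2 in MASM + TBI rats (0.0372% and 0.0968% of all genes). Their medians of 0.34, 0.30 and -0.03 compare with 2.51, 2.50 and -0.01 for the growth arrest and stress targets. The exonuclease gene Aen rose by 1.60 in TBI rats (limma adjusted p 1.54e-04) and 1.46 in MASM + TBI rats, the death gene Bax by 1.20 (8.18e-04) and 1.17, the death receptor gene Fas by 1.11 (0.0166) and 1.11, and the zinc finger gene Zmat3 by 1.06 (0.00283) and 1.11. The repair gene Xpc fell by 1.15 in MASM + TBI rats (0.0216), and its difference of -0.81 in TBI rats (0.0616) was not called.

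Close relatives of the targets, 20 of them measured, moved in both directions. In TBI rats 3 were called higher and 4 lower, in MASM + TBI rats 4 higher and 3 lower, and between the irradiated groups 0 by limma (2 at an unadjusted p below 0.05, 0 when each gene was tested by itself), with medians of 0.41, 0.18 and 0.08, or 0.19, 0.18 and 0.06 with genes near background in a group at their bound. Beside Cdkn1a, the inhibitors Cdkn1b (-0.31), Cdkn1c (0.60) and Cdkn2a (0.66) were not called in TBI rats, nor was Cdkn2b, which was not well above background on any control array, while Cdkn2c fell by 1.58 (limma adjusted p 0.0147) and Cdkn2d by 0.89 (0.00247). Beside Ccng1, Ccng2 fell by 0.68 in TBI rats (0.0356) and 1.08 in MASM + TBI rats (0.00624). Among relatives of Btg2, Tob1 was called in MASM + TBI rats, at 0.78 (0.00963), and Btg1 (0.44), Tob1 (0.56), Tob2 (-0.38) and Btg3 (at least 1.4-fold higher) were not called in TBI rats. Btg4 was not well above background on any array. Beside Plk2, Plk1 fell by 2.70 in TBI rats (0.00264) and 2.60 in MASM + TBI rats, and the probes of Plk3 disagreed: the brighter one, at 1.10 (0.0946), was not called and the dimmer one, at 1.19 (0.00978), was. For the rest, Phlda2 rose by 0.79 (0.0206) and 1.04 (0.00646), Sesn2 by 0.98 (0.00933) and 0.85 (0.0173), and Mdm4 as given above, while Phlda1 (0.39), Sesn3 (-0.33) and Gdf10 (-1.45) were not called.

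As background, p21 is known to repress genes of the G2 and M phases through the DREAM complex, which was not tested here. Of 12 such genes measured, 10 were called lower in TBI rats (2.74% of all genes were called lower), 10 in MASM + TBI rats (1.97%), and 0 between the irradiated groups by limma (1 at an unadjusted p below 0.05, 0 when each gene was tested by itself). Testing each gene by itself called 0 of 12 in either comparison with control after adjustment (0.0372% and 0.0968% of all genes). At an unadjusted p below 0.05 with the same fold, 10 passed that test in TBI rats and 11 in MASM + TBI rats (7.43% and 6.75% of all genes). The medians were -2.86, -2.83 and 0.11, or -2.86, -2.57 and 0.05 with genes near background in a group at their bound. Cyclin A2 (Ccna2) was not well above background on any TBI array, so that its fall was at least 14.7-fold (limma adjusted p 0.00595). Cdk1 fell by 3.50 (0.00329). Ttk (0.011) and Ccnb2 (0.00261) were also called lower, and as only 1 of 3 TBI arrays read either of them well above background, the sizes of their falls (4.04 and 3.65) rest in part on background values. The mean over the 12 genes, minus the control mean, was -2.72, -2.70 and -2.35 in TBI rats 1, 2 and 3 and -2.35, -2.85, -2.12 and -2.43 in MASM + TBI rats 1, 2, 3 and 4, against -0.52, 0.31 and 0.21 in control rats 1, 2 and 3. MASM + TBI rat 4 lay among the other irradiated rats here, as it did for Cdkn1a.

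In bulk liver, fewer cells of a type and less RNA per cell cannot be told apart, and some lymphocyte markers differed between the groups. Of 6 T lymphocyte markers, 3 were called lower in TBI rats, 2 in MASM + TBI rats and 0 between them by limma (1 at an unadjusted p below 0.05, 0 when each gene was tested by itself). With each gene tested by itself, 0 of 6 T and 0 of 2 B lymphocyte markers were called in either comparison with control. Cd2 fell at least 5.14-fold in TBI rats (limma adjusted p 0.00622), and Cd3g fell by 3.60 (0.00381) in TBI rats and 3.61 in MASM + TBI rats, sizes that rest in part on background values, as 2 of 3 TBI and 1 of 4 MASM + TBI arrays read it well above background. The third called marker, Cd3e, was not well above background on any array, nor was Cd5. The summed T marker signal, with the probe of Cd3d the brightest, was 9.14, 9.58 and 9.38 in control rats 1, 2 and 3, 8.13, 7.82 and 8.70 in TBI rats 1, 2 and 3, and 8.45, 8.62, 7.69 and 8.40 in MASM + TBI rats 1, 2, 3 and 4. All irradiated rats were below all controls. Of 2 B lymphocyte markers, Cd79b was called in both comparisons with control, a fall of at least 4.98-fold after TBI and at least 2.55-fold after MASM and TBI. The other, Cd22, differed the other way in TBI rats, at 0.54 (limma adjusted p 0.117, not called) with every TBI rat above every control, and was at -0.04 in MASM + TBI rats. Between the irradiated groups 0 were called by limma (1 at an unadjusted p below 0.05, 0 when each gene was tested by itself), and the summed signal, led by Cd22, averaged 7.47 in control, 7.68 in TBI and 7.12 in MASM + TBI rats. The part of lymphocytes in the targets' values was not tested.

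For other cell types few markers were called. Of 5 stellate cell markers Lrat was called, lower by 0.62 in TBI rats and by 0.60 in MASM + TBI rats, and 0 were called between the irradiated groups by limma (0 at an unadjusted p below 0.05, 0 when each gene was tested by itself). By limma 0 of 8 hepatocyte, 5 Kupffer cell, 4 neutrophil, 4 erythroid, 3 sinusoidal endothelium and 2 cholangiocyte markers were called in any comparison, nor were any when each gene was tested by itself. At an unadjusted p below 0.05, TBI against control had 2 hepatocyte, 3 erythroid and 2 endothelium markers, MASM + TBI against control 3, 3 and 1 of the same lists, and MASM + TBI against TBI 3 Kupffer cell markers. The largest differences between TBI and control in these lists, not called, were -0.52 for Ttr and 0.51 for Cps1 (hepatocyte), 0.64 for Marco and 0.46 for Cd68 (Kupffer cell) and -0.96 for Ngp and 0.46 for S100a9 (neutrophil). They were 1.53 for Slc4a1 and 1.42 for Epb42 (erythroid, where Hbb at -1.30 and Alas2 at -1.14 differed the other way), 0.53 for Lyve1 and 0.33 for Kdr (endothelium) and 0.46 for Krt19 and -0.34 for Epcam (cholangiocyte). Ngp and Epb42 were well above background on 1 of 3 control arrays. The mean summed signal in control, TBI and MASM + TBI rats was 15.76, 15.94 and 15.35 for Kupffer cells (led by Clec4f), 8.97, 9.11 and 9.02 for neutrophils (S100a9) and 11.64, 10.67 and 10.52 for erythroid cells (Hbb). It was 13.82, 14.18 and 14.04 for endothelium (Kdr), 12.20, 12.04 and 11.95 for stellate cells (Lrat) and 8.86, 8.79 and 8.76 for cholangiocytes (Epcam).

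To find genes that moved like the targets, the 10 log2 signals of each probe were scaled to mean 0 and SD 1 and set against the mean scaled profile of the 8 targets, among 9579 genes well above background on all arrays of at least 1 group. The measure is the root mean square difference over the 10 arrays, which share the same groups and slides, so a gene raised in all irradiated rats scores low, and the scaling removes the size of the change. The DNA repair gene Mgmt was the closest at 0.112, followed by Rpl19 (0.130), Foxj1 (0.135), Aen (0.196), Rps19 (0.221) and Slc25a22 (0.241). Foxj1 was not well above background on any control array, so it entered only through the irradiated groups and its profile rests on background values in the controls. Mgmt rose by 2.25 in TBI rats (limma adjusted p 5.21e-04) and 2.30 in MASM + TBI rats, and Foxj1 was at least 2.07-fold and 2.43-fold higher. Smaller changes also scored low: Slc25a22 by 0.79 and 0.70 and Rps19 by 0.60 and 0.59 were called, while Rpl19, at 0.48 and 0.50, was not, being below 1.5-fold. The targets themselves were at 0.201 (Phlda3), 0.202 (Ccng1), 0.225 (Gdf15), 0.230 (Tp53inp1), 0.240 (Cdkn1a), 0.386 (Mdm2), 0.408 (Btg2) and 0.547 (Plk2). By this measure Btg2 and Plk2 were the targets least like the common profile. Each target is itself part of that profile, and none was left out when it was scored.

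Because 7 of the 8 measured targets rose in both comparisons with control, the promoters of the 9 targets were read from RefSeq on the rat build GRCr8, as 250 bases before to 50 after each annotated start. The promoter set used held an entry for 8 of the 9 targets, and 33469 promoters of the same length served as background. It held none for Tp53inp1, although that gene has an annotated span on the same build. The motif CATGNNNNNNCATG, the bare cores of a p53 response element, was in 0 of 8 target promoters and 0.457% of all. Both strands were searched for the p53 response element, a pair of p53 binding repeats with a spacer of 0 to 13 bases. With at most 1 mismatch it was found in the promoter of Cdkn1a, in 2 of 21 promoters of other p53 targets (Gadd45a and Pidd1) and in 0.35% of all promoters. With at most 2 mismatches it was found in Cdkn1a, Ccng1 and Sesn1, which is 3 of 8, in 4 of 21 promoters of other p53 targets (Gadd45a, Aen, Pidd1 and Trim32), and in 1.95% of all promoters. TATAAA was in 0 of 8 target promoters, 1 of 21 of the other p53 targets and 14.2% of all, and CCAAT on either strand was in 6 of 8 (Btg2, Plk2, Ccng1, Mdm2, Gdf15 and Sesn1), 9 of 21 and 37.5% of all. These are descriptions of letters in a window, and no match says only that the letters are not in it. For 3 of the 8 entries (Cdkn1a, Mdm2 and Sesn1) the start lay inside the gene's annotated span, and bases of that span are not shown for Cdkn1a. For Mdm2 and Sesn1 all 250 bases before the start lay inside it. The start of the Sesn1 entry was 71801 bases inside, so its match does not lie upstream of the annotated gene. The stretch of Aen lies almost wholly inside its gene's annotated span. The stretches printed here show the closest match to the p53 response element among the targets (Cdkn1a, 1 mismatch and no spacer, chr20:7150682-7150819, plus strand), a looser one (Ccng1, 2 mismatches and a spacer of 5 bases in lower case, chr10:25684877-25685126, minus strand), the match in another p53 target with a like profile (Aen, 2 mismatches, chr1:142224498-142224527, plus strand), and a strongly raised target with none at that limit (Gdf15, chr16:18838336-18838435, plus strand). Capitals mark the repeats in Cdkn1a, Ccng1 and Aen, and in Gdf15 the CCAAT motif as it reads on the other strand.
Cdkn1a: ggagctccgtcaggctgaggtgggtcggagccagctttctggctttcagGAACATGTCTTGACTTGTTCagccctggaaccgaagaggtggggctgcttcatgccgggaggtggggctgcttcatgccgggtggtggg
Ccng1: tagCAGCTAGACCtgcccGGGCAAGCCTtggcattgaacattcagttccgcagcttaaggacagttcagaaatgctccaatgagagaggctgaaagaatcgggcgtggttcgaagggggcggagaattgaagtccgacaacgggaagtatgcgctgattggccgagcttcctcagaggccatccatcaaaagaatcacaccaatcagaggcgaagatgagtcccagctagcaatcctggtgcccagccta
Aen: aagccGGGCATGTCCGGGCAAGCAActact
Gdf15: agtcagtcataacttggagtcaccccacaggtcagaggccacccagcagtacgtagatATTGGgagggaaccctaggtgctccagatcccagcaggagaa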

How the data were processed

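The values are the authors' deposited scanner files, made with Feature Extraction 10.7.3.1 from the Cy3 intensity of each spot, and the deposited table of processed values differed from them by at most 0. The background-subtracted signal was used. Of 45018 spots per array 1639 were control spots, spots marked as outliers (76 to 112 per array) were left out, and 0 spots were saturated. Spots of a probe were averaged, giving 41012 probes, of which 67 lacked a value on some array. Values were logged (base 2), quantile normalized and fitted with limma 3.58.1 in R 4.3.3 (with version 1.17.8 of data.table) over the 10 arrays and 3 groups, with Benjamini-Hochberg adjustment over 40945 probes. Of these probes, 20707 carried a RefSeq accession and 16968 of them matched a symbol, for 13438 genes, 13426 of them tested. A gene was represented by its brightest probe, with every probe of the 9 targets given. Where a probe was not well above background on any array of a group, the fold is a bound: each dim value was raised to the lowest signal well above background on its array, and the fold is written as at least N-fold. Motifs were searched with python 3.11.15 and numpy 2.4.6, and figures drawn with matplotlib 3.10.9.

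The genes named were the 9 targets, all measured relatives, and from each other list (p53 regulators, other p53 targets, G2/M genes, integrated stress response, glucocorticoid and fasting, immediate early, and markers of hepatocytes, T and B lymphocytes, Kupffer cells, neutrophils, erythroid cells, sinusoidal endothelium, stellate cells and cholangiocytes) the called genes with the largest difference between TBI and control, at most 4 a direction, or where none was called the 2 with the largest difference. The 6 genes most like the targets were also named. The members and lists were chosen with earlier results of these data known, and 1 gene each of the p53 regulators and the B lymphocyte markers is not reported here and was left out of the list's values. The alternatives were 75th percentile scaling, normexp background correction on median intensities with an offset of 50, the deposited table, dim probes left out, 2 groups per model, a test of each gene by itself of the kind the study reports, a trended and robust prior, replicate number as a block, slide as a random or fixed block, the mean over the probes of a gene, and leaving out each rat in turn.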

Additional observations from a re-analysis of the deposited data

Results flagged for a closer look

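In the MASM + TBI group of 4 rats, the gap between the most extreme rat and its nearest neighbour was divided by the group's range for 145 probes of the targets, the genes of the lists and the genes most like the targets, and 12 exceeded Dixon's 95% critical value for 4 samples. Chance puts about 1 in 20 groups above it. Of the 12, 8 were lowest in MASM + TBI rat 4. Among the 11 probes of the targets it was 1, that of Btg2 (0.849), where rat 4 read 10.80 and the other rats of the group 12.61 to 12.93. The gap of Gdf15 in the same rat, 0.731, did not exceed the value. The other genes lowest in rat 4 were Atf3 (0.859), Chac1 (0.871), G6pc1 (0.838), Jun (0.84), Nr4a1 (0.854), Pck1 (0.857) and Ttr (0.861). Usp7 (0.884) and Zbtb16 (0.837) were highest in rat 4, and Kdr (0.854) and Rchy1 (0.858) were lowest in rat 3, the rat of the group on slide 1. Rat 4 was on slide 3 with rats 1 and 2. Why it stood apart was not tested.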

How the results depend on the processing

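The deposited table held the same values as the scanner files and is not counted here. Over the 11 target probes and every other alternative, 194 of 209 log2 fold changes in TBI against control kept their direction and their side of the threshold, and 15 fell short of it. In MASM + TBI against control 203 of 231 were counted as unchanged, 24 fell short, 1 passed it and 3 values within slide 1 moved. The values within slide 1 have no p. They counted as unchanged when they differed from the main value by less than the SD within groups. In MASM + TBI against TBI 199 of 209 kept their direction and their side of the threshold, and 10 changed sign, none of them called. When each gene was tested by itself, 0 targets were called by their brightest probe after adjustment in both comparisons with control, and the dimmer probe of Ccng1 was called in MASM + TBI against control (adjusted p 0.0389). In TBI against control the adjusted p ran from 0.129 to 0.254 for the brightest probes of the 7 targets limma called. The test of each gene by itself shares no spread across genes. Among the other lists it called 2 of 20 other p53 targets in MASM + TBI against control, and 0 genes of every other list in any comparison. With slide as a fixed block the estimate in MASM + TBI against control is the difference of MASM + TBI rat 3 from the control mean, the same as within slide 1, and that lone rat is assumed to vary like the other groups. On that assumption 3 targets were called by their brightest probe. Slide as a fixed block could not be fitted for the comparisons with TBI, since slide 2 held TBI rats alone. Slide as a random block cannot separate slide from group either, as they largely coincide. It gave the lowest limma adjusted p of Btg2 (0.00599) and Mdm2 (0.00312) in TBI against control, which is no sign of firmer calls. Leaving out 1 rat gave 5 to 7 called targets in TBI against control, 6 to 7 in MASM + TBI against control and 0 in MASM + TBI against TBI. The shares of all genes called in these fits are not given here.

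The changes of sign in MASM + TBI against TBI were these. With normexp correction, the dimmer probe of Ccng1 was at -0.04. With the replicate block, Gdf15 was at 0.15 and the probes of Ccng1 at -0.04 and -0.03. Without MASM + TBI rat 4 the values were the same, 0.15, -0.04 and -0.03. Only that rat has number 4, so the replicate block sets it aside, and these changes of sign are counted under both settings. Without TBI rat 1 the dimmer probe of Ccng1 was at -0.05, and without TBI rat 3 Ccng1 was at -0.01 and Tp53inp1 at -0.05. With 1 rat left out at a time, Gdf15 ran from -0.48 to 0.15, Tp53inp1 from -0.05 to 0.27, Ccng1 from -0.04 to 0.32 and its dimmer probe from -0.05 to 0.25. For the normexp correction the cause was not tested. Replicate numbers did not pair the rats: of 9 pairs with the same number across groups, 1 had r above 0.1 over genes, and r ran from -0.13 to 0.17. The median over all genes stayed within 0.04 of 0 in every setting.

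With 3 or 4 arrays a group, intervals for Cdkn1a, Ccng1, Btg2, Plk2 and Gdf15 span more than 1 log2 unit. Slides and groups largely coincide. The second probe of Cdkn1a was near background in controls, so its size is uncertain (1.09 in TBI against control under the alternative with normexp, which also used median intensities and an offset of 50). No probe was matched to Sesn1, protein was not measured, and 1 time point was taken.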
